A study of Mus musculus with 4 samples.

Results

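P2ry12-high stroke microglia are the microglia that still carried abundant P2ry12 RNA in mouse brain 3 days after a stroke: 1610 cells, of 18045 that passed quality control in the 4 libraries of the series (20437 barcodes). They were selected on their own measured RNA. A cell entered with at least 500 genes, at least 1000 unique molecular identifiers (UMIs, each a counted RNA molecule) and at most 10% mitochondrial UMIs. It also needed at least 30 UMIs per 10000 from 6 microglial genes (P2ry12, Tmem119, Siglech, Fcrls, Olfml3 and Selplg) and at least 20 per 10000 from P2ry12. Fewer than 3 UMIs per 10000 could come from Mki67, Top2a and Birc5, fewer than 10 from Ifit1, Ifit2, Ifit3, Rsad2 and Isg15, and fewer than 20 from Ccl3 and Ccl4, so dividing, strongly interferon-responding and chemokine-rich cells were left out. These values chose the members, and the 16 genes of the rule are described below without being read as findings. Of the members, 780 came from the female and 830 from the male stroke library.

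Every library came from Tmem119-2A-CreERT2;Ai6 mice, in which a tamoxifen-dependent Cre recombinase made by cells that use the Tmem119 gene switches on the green fluorescent protein ZsGreen. The stroke groups, 1 of females and 1 of males, had the right middle cerebral artery tied permanently, and the sham groups, also 1 per sex, had the operation without the tie. The hemisphere on the side of surgery was taken at day 3, enriched for microglia on a Percoll gradient, and live ZsGreen-positive cells were sorted for 10x 3′ sequencing. Cells of 4 mice were combined in each library, so the spread between mice is not in the data, sex and library cannot be told apart within a treatment, and a microglial cell that never recombined or lost its green label was not sampled. The comparison groups were the 5495 sham cells that pass the same rule (2487 female, 3008 male) and the 5044 other stroke microglia (2678 female, 2366 male), which met the quality steps and the sum of microglial genes but failed another step.

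Microglia are the resident macrophages of the brain. P2ry12 encodes a receptor for nucleotides released by damaged cells, which guides microglial processes to injury and is widely used as a marker of the surveying, homeostatic state. Activated microglia lower it together with other homeostatic genes and turn on genes of lysosomes, lipid handling, interferon response and division. Il7r encodes the interleukin-7 receptor alpha chain, Sox4 a transcription factor and Plxna4 a receptor for semaphorins, and these 3 genes are the further markers given for the cells.

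P2ry12 (ENSMUSG00000036353) lies at chr3:59216272-59262871, Il7r (ENSMUSG00000003882) at chr15:9505788-9530176, Sox4 (ENSMUSG00000076431) at chr13:28948919-28953713 and Plxna4 (ENSMUSG00000029765) at chr6:32144268-32588192, all on the minus strand of GRCm38 in GENCODE M21. The promoter windows of the 3 of these genes that matched the RefSeq table (GRCm38.p6, minus strand, 250 bases before to 50 after the RefSeq start) are shown because the genes were all lower in the other stroke microglia. Capitals mark GAGGAA, the core recognised by PU.1, the lineage factor of macrophages. The windows are chr3:59262936-59263235 for P2ry12, chr15:9529827-9530126 for Il7r and chr13:28953650-28953949 for Sox4.
P2ry12: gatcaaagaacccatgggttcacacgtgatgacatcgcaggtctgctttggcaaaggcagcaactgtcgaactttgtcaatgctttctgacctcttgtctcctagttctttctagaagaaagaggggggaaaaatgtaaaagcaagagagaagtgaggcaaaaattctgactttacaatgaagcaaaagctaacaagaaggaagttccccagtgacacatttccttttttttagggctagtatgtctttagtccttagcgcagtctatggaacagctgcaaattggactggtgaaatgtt
Il7r: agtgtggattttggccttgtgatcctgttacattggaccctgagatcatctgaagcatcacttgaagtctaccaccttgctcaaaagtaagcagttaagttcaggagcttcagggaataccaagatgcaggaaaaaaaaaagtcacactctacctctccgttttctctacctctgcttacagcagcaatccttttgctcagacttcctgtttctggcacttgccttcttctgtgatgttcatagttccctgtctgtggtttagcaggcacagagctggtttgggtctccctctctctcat
Sox4: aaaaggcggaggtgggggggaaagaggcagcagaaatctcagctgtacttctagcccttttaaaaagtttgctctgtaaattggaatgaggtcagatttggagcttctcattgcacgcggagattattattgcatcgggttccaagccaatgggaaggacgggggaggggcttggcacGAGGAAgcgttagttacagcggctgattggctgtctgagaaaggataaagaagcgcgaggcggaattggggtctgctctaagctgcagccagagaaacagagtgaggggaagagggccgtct
GAGGAA occurred once in the Sox4 window, on the forward strand, and on neither strand of the P2ry12 and Il7r windows. The P2ry12 window lies wholly before the GENCODE gene and the Il7r window wholly within it, because the annotations place the starts differently. Of 32851 windows of 300 bases in the table, 28.28% held the motif on either strand, so a match is common. A missing match says only that these letters are not in the window.

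The 4 libraries held from 29581392 to 66072270 UMIs. The lowest barcode of the male sham library had 4198 UMIs, against 500 or 501 in the others, so shallow cells were missing from that library before the rule was applied. Between 4 and 11 barcodes were shared by each pair of libraries, and in 1 case both cells passed the rule. The members' 2 sums held 4890616 (female) and 5348017 (male) UMIs, those of gated sham cells 15800945 and 17466968, and those of the other stroke microglia 35191627 and 31478349. Median UMIs per cell were 5471.5 and 5797.5 in the members, 6299 and 5385.5 in gated sham cells and 10340 and 10590 in the other stroke microglia. The median mitochondrial share was 3.97% and 3.54% in the members, 2.02% and 1.16% in gated sham cells and 5.21% and 4.92% in the other stroke microglia, and its part in the results was not tested beyond a limit of 5% in the rule. With that limit, 795 genes rose and 557 fell against sham, where the full set gave 1083 and 761 (edgeR, described below).

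Among cells that met the microglial sum, 22.56% passed the rule in the female stroke library (780 of 3458; exact 95% interval 21.17 to 23.99) and 25.97% in the male (830 of 3196; 24.46 to 27.53). In sham libraries 77.77% (2487 of 3198; 76.29 to 79.2) and 72.36% (3008 of 4157; 70.97 to 73.72) passed. Both stroke shares lay below both sham shares, as the plot of the share that passes shows, and the intervals cover counting error only. P2ry12 was the step that most stroke cells failed: 2600 female and 2290 male stroke cells missed its minimum, and it was the one failed step of 1610 and 1427 of them. Division genes were past their limit in 784 and 658 stroke cells against 24 and 57 sham cells, interferon genes in 221 and 232 against 30 and 34, and Ccl3 with Ccl4 in 198 and 166 against 21 and 80. With each cell thinned to 3000 UMIs, the stroke shares were 24.27% and 26.79% and the sham shares 79.46% and 72.79%.

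**Figure D1:**
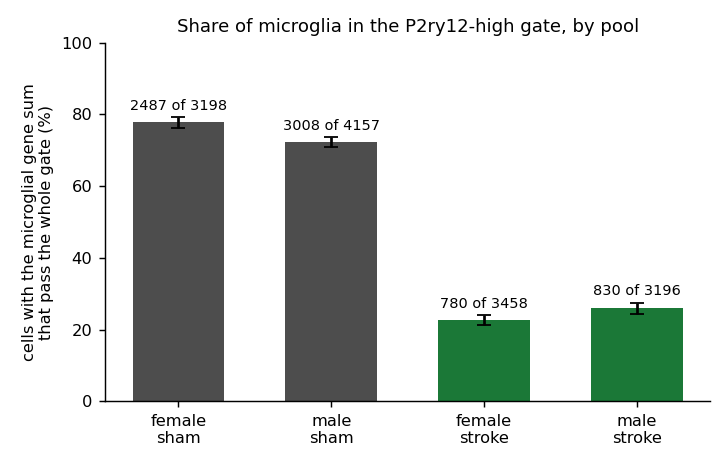
Share of cells meeting the microglial sum that passed the whole rule, in percent, for the 4 libraries, with exact 95% intervals of counting error. The stroke libraries are at 22.56% and 25.97%, the sham libraries at 77.77% and 72.36%.

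The P2ry12 minimum cuts through a continuous range. Just below it, at 18 to 20 UMIs per 10000, lay 144 female and 120 male stroke cells (median 6833 and 6557 UMIs per cell), and just above it, at 20 to 22, lay 107 and 131 cells (6837 and 5989 UMIs). The members are therefore a range of P2ry12 levels, not a separate kind of cell by this measure. Their median P2ry12 was 28.9 and 28.4 UMIs per 10000 in the female and male library. Gated sham cells had 36.4 and 32.3, and the other stroke microglia 8.17 and 8.28.

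The values that follow are levels in CPM (UMI counts scaled to a common library depth), summed over the cells of a class in each library and scaled by common TMM factors. P2ry12, which the rule fixed, stood at 3044 (female) and 2994 (male) CPM in the members, 3280 and 3094 in gated sham cells and 829.5 and 863.2 in the other stroke microglia. Of the other microglial genes in the rule, Tmem119 was at 794.3 and 827.3 CPM in the members, 885.0 and 867.2 in sham and 388.4 and 420.7 in the other stroke cells. Fcrls did not share that order: it was at 2418 and 2388 CPM in the members, 1566 and 1684 in sham and 2505 and 2593 in the other stroke cells. Olfml3 likewise stood at similar levels in both stroke classes, with 2032 and 2178 CPM in the members and 1870 and 2053 in the other cells. Siglech was at 1442 and 1434 CPM in the members and 633.7 and 689.9 in the other stroke cells, and Selplg at 2305 and 2451 against 1096 and 1195. The rule used all 6 genes, so nothing is read from their order.

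Of the 3 marker genes that the rule did not use, none was called against sham, and Sox4 lay below both sham values. Il7r was at 73.11 and 72.97 CPM in the members, 65.21 and 69.59 in gated sham cells and 23.24 and 19.7 in the other stroke microglia. Both member values were above all 4 others. Against sham, the log2 change was 0.12 ± 0.14 (SE, adjusted p = 0.65, edgeR's quasi-likelihood test with Benjamini-Hochberg adjustment, 2 libraries a group), which did not pass the test. Plxna4 was at 55.97 and 54.73 CPM in the members, 65.1 and 48.98 in sham and 16.49 and 16.35 in the other stroke microglia. The member values lay between the 2 sham values, and the log2 change against sham was -0.03 ± 0.14 (adjusted p = 0.93, same edgeR test).

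Sox4 was at 222.2 and 202.0 CPM in the members, 253.7 and 280.0 in sham and 65.47 and 56.36 in the other stroke microglia. Both member values were below both sham values, and the log2 change of -0.33 ± 0.14 did not pass the test (edgeR, adjusted p = 0.099). With library totals in place of TMM the Sox4 change was -0.52 and passed (edgeR, adjusted p = 0.0013). It also passed at a P2ry12 minimum of 15 (-0.46) and without cells rich in immediate early genes (-0.48). It did not pass at a P2ry12 minimum of 30, without monocyte marker cells or in DESeq2. The Sox4 change was -0.40 without the female and -0.26 without the male sham library. Each of these 2 fits had a lone sham library and no sex term, so no call is read from them. The 3 further markers together gave 0 calls in either direction in edgeR, with 0 higher and 1 lower at an unadjusted p under 0.05 and 0 by DESeq2. In the stroke libraries, the members' levels exceeded those of the other microglia by log2 1.65 and 1.89 for Il7r, 1.76 and 1.84 for Sox4 and 1.76 and 1.74 for Plxna4, which is a description of cells split by their own RNA and carries no test.

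**Figure D2:**
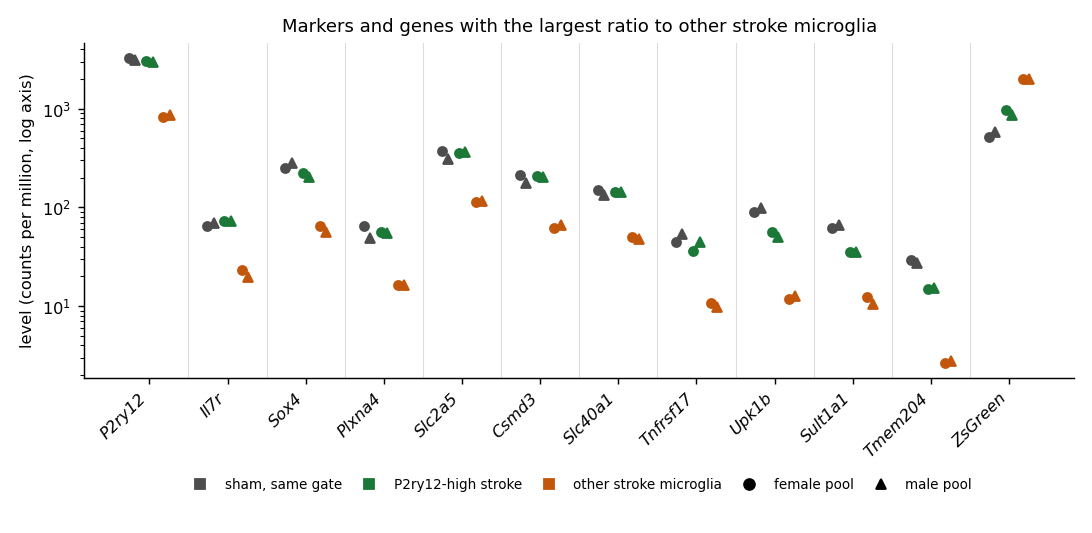
Levels in CPM (log axis) of 11 genes and the ZsGreen reporter in gated sham cells (grey), P2ry12-high stroke cells (green) and other stroke microglia (orange), circles for the female and triangles for the male library. Il7r and Plxna4 lie near the sham values in the members, Sox4 below both of them, and all 3 are lower in the other stroke microglia, while ZsGreen follows the opposite order.

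ZsGreen RNA, the reporter on which cells were sorted, was at 970.4 and 864.2 CPM in the members, 516.1 and 582.7 in gated sham cells and 2010 and 1990 in the other stroke microglia. The 3 classes did not overlap. The members' rise over sham was log2 0.74 ± 0.16 (edgeR, adjusted p = 0.00016). Without the female stroke library it was 0.65 and without the male 0.82, in fits that also lacked the sex term. Each of these fits had a lone stroke library, so no call is read from them.

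The question of the comparison with sham is which RNAs differ in cells that pass the same P2ry12 rule. Of 12446 genes tested outside the rule, 1083 (8.7%) rose and 761 (6.11%) fell in the members (edgeR's quasi-likelihood test, Benjamini-Hochberg adjusted p under 0.05), 335 and 340 of them by at least 2-fold. The 12 largest rises ran from log2 1.95 (Csf1) to 6.21 (Spp1), and the largest falls were of Meg3 and Snhg11, noncoding RNAs of neurons. The median log2 change over all genes was -0.02. With library totals it was -0.21, and 646 genes rose and 2267 fell, which took the share of calls that were rises from 58.7% to 22.2%. Without the female stroke library 308 genes rose and 203 fell, and without the male 383 and 220. Without the female sham library 1501 rose and 1398 fell, and without the male sham library 1261 and 553. The fits with a library left out also lacked the sex term. With all libraries and no sex term, 766 genes rose and 465 fell. DESeq2 called 410 higher and 59 lower. The fit has 1 residual degree of freedom, so the p-values rest on the spread shared by all genes and say nothing of the spread between mice.

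Among the 12 largest rises, Cst7, which encodes the lysosomal cysteine protease inhibitor cystatin F, was at 98.92 and 89.9 CPM in the members against 11.54 and 12.42 in sham and 180.3 and 191.8 in the other stroke microglia. The log2 change against sham was 2.98 ± 0.15 (edgeR, adjusted p = 6.9e-83). Ifi27l2a, an interferon-inducible gene, was at 333.5 and 333.1 CPM in the members, 18.52 and 27.02 in sham and 898.8 and 1215 in the other stroke cells. Its log2 change was 3.89 ± 0.15 (adjusted p = 1.7e-135, same edgeR test). In both genes the members lay between sham and the other stroke microglia without overlap.

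Chst2, a carbohydrate sulfotransferase, had another order: 31.8 and 27.46 CPM in the members, 3.087 and 3.391 in sham and 25.68 and 28.83 in the other stroke microglia. The members rose by log2 3.18 ± 0.21 (edgeR, adjusted p = 5e-48), and the 2 stroke classes overlapped. Psat1, of serine synthesis, was at 55.55 and 43.26 CPM against 12.51 and 11.27 in sham (log2 2.05 ± 0.16) and 118.8 and 111.8 in the other stroke cells. Cdkn1a, the p21 cell cycle inhibitor, was at 52.04 and 42.88 CPM against 10.18 and 12.73 in sham (log2 2.05 ± 0.16). Csf1, a growth factor for microglia, was at 33.87 and 27.08 CPM against 7.095 and 8.608 in sham (log2 1.95 ± 0.18). All 3 rose in edgeR's quasi-likelihood test with Benjamini-Hochberg adjustment, and their levels were higher still in the other stroke microglia.

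Spp1, the secreted protein osteopontin, had the largest log2 change, 6.21 ± 0.20 (edgeR, adjusted p = 3.9e-199), from 0.7582 and 1.565 CPM in sham (14 and 30 UMIs) to 83.02 and 90.65 in the members (402 and 482 UMIs). The other stroke microglia had 3691 and 4302 CPM. Cells rich in neutrophil markers and below the microglial sum were set beside the members. They were 66 female and 45 male stroke cells of median depth 3130.5 and 2582 UMIs, cut after the data were seen. No limit on monocyte markers was set for them, and doublets were not called. Whether they make Spp1 themselves was not tested. A class rich in T and NK markers was also defined, and its shares are not reported here. Thinned to 3000 UMIs, 22% and 21.5% of the members had an Spp1 UMI (35.5% and 38.4% unthinned) against 43.2% (exact 95% interval 27.1 to 60.5) and 40% (19.1 to 63.9) of the 37 and 20 neutrophil-marker cells deep enough. The members' shares thus lay below the interval of the neutrophil-marker cells in the female library and inside it in the male. Before thinning, the members were deeper, at a median of 5471.5 and 5797.5 UMIs, so the classes are not fully alike. The source of the members' Spp1 UMIs was not tested, so neither expression nor background is read from them.

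The same measure was taken for other rises. Whether the neutrophil-marker cells make these RNAs themselves was not tested, so their shares need not be background. Cst7 UMIs were in 17.2% and 18% of thinned members against 2.7% (0.0684 to 14.2) and 5.0% (0.127 to 24.9) of neutrophil-marker cells and 2.37% and 3.09% of gated sham cells. The intervals for Cst7 did not overlap in the female library (14.4 to 20.3 in members) and did in the male (15.2 to 20.9), where the neutrophil-marker share rests on 20 cells. Chst2 UMIs were in 8.31% and 5.94% of members against 2.7% and 0.0% of those cells, the latter allowing up to 16.8%. Apoe, the main lipid carrier of the brain, was in 69.6% and 51.4% of members against 54.1% and 70.0% of neutrophil-marker cells. Cd72, an inhibitory receptor of B cells and myeloid cells, was in 5.49% and 6.91% against 5.41% and 5.0%. The members' Cd72 shares, and their Apoe share in the male library, lay inside or below the intervals of the neutrophil-marker cells (0.661 to 18.2 and 0.127 to 24.9 for Cd72, 45.7 to 88.1 for Apoe). By the same measure the Cst7 share lay above the interval in the female library (17.2% against an upper bound of 14.2%) and inside it in the male. Ifi27l2a was in 32.0% and 34.7% of members, and in 37.8% and 10.0% of the neutrophil-marker cells, so the members' share was the higher one in the male library and not in the female.

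**Figure D3:**
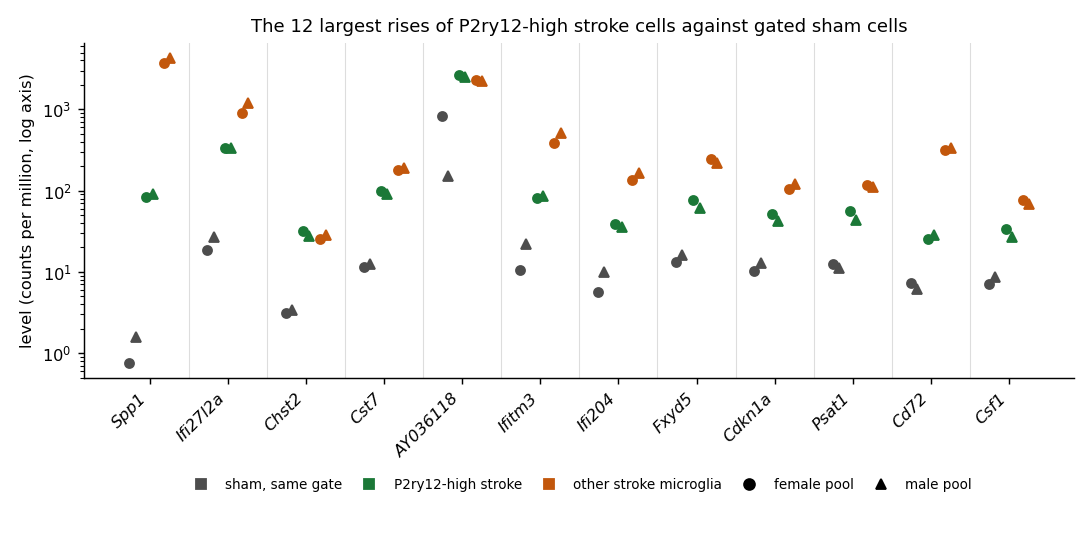
Levels in CPM (log axis) of the 12 genes with the largest rises in P2ry12-high stroke cells over gated sham cells, for gated sham (grey), P2ry12-high stroke (green) and other stroke microglia (orange), circles female and triangles male. For most genes the green points lie between grey and orange; for Chst2 and AY036118 green and orange are at similar levels.

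AY036118, an annotated transcript that overlaps ribosomal RNA sequence, was also among the 12, at 2622 and 2480 CPM in the members, 838.9 and 152.5 in sham and 2285 and 2268 in the other stroke cells. Its 2 sham libraries differed more from each other than the members did. The other rises of the 12 were Ifitm3, Ifi204 (both interferon-inducible), Fxyd5, a regulator of the sodium pump, and Cd72, with log2 changes from 2.01 to 2.43.

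The largest falls were of RNAs that microglia are not known to make in quantity. Meg3, a long noncoding RNA of neurons, was at 1.446 and 1.505 CPM in the members against 74.03 and 124.9 in sham (log2 -6.07 ± 0.24, edgeR, adjusted p = 1.6e-129). Snhg11, another neuronal noncoding RNA, was at 1.033 and 1.505 against 44.41 and 48.36 CPM (log2 -5.17). Of 8 neuronal marker genes tested, 7 fell, and their summed level was 6.815 and 9.968 CPM in the members against 151.6 and 219.5 in sham and 10.67 and 11.55 in the other stroke microglia. In the members, 2 and 1 of the 9 listed neuronal genes were at 0 UMIs. Oligodendrocyte markers fell in 5 of 6 tested (sums 91.07 and 90.46 against 130.2 and 171.7 CPM), and astrocyte markers in 4 of 5 (200.7 and 211.2 against 212.6 and 229.9 CPM). The neuronal sum was low in both stroke classes, and the part of RNA from other cells in these falls was not tested.

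Ttr, made by the choroid plexus, was at 469.4 and 155.7 CPM in the members against 676.5 and 1622 in sham, and Enpp2 at 36.35 and 7.147 against 40.4 and 58.95. Both fell in the test, and the size lay mostly in the male libraries, where the sham sum of the 8 choroid markers was 1690 CPM against 165.3 in the members. The female sums were 723.3 and 514.2 CPM, and the part of choroid RNA in these calls was not tested.

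For the other falls of the 12, both member values lay below both sham values. Tmem204, a transmembrane protein, was at 14.87 and 15.42 CPM in the members, 29.57 and 27.54 in sham and 2.653 and 2.742 in the other stroke microglia (log2 against sham -0.91 ± 0.17, edgeR, adjusted p = 6.3e-06). Epn2, an endocytic adaptor, and Gimap6, a GTPase of immune cells, had the same order, at 14.87 and 14.67 CPM and 13.84 and 14.48 CPM in the members. For these genes the members were intermediate between sham and the other stroke cells. Ccnd1, the G1 cyclin D1, and Ilf2 fell instead to below both other classes: Ccnd1 was at 66.71 and 69.4 CPM in the members, 120.0 and 141.6 in sham and 106.9 and 98.98 in the other stroke microglia. Ilf2 was at 23.54 and 25.77 CPM, with 42.46 and 50.5 in sham and 46.74 and 45.72 in the other stroke cells. The gap was smaller against stroke cells that failed on P2ry12 alone, compared on plain totals without TMM factors. There Ccnd1 was at 81.54 and 73.15 CPM against 66.04 and 69.0 in the members. Ilf2 was at 27.26 and 23.89 against 23.31 and 25.62, so the members were not lower in the male library. Hes1, a Notch target, was at 11.77 and 15.61 CPM against 26 and 24.41 in sham, and Ddit4, a glucocorticoid- and stress-inducible inhibitor of mTOR, at 15.28 and 13.16 against 26.21 and 30.73.

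Of 42 homeostatic genes tested outside the rule, 5 rose and 3 fell, shares near the 8.7% and 6.11% of all genes. Their median log2 change was -0.01 against -0.02 over all genes, while per cell thinned to 3000 UMIs their sum was lower in the members (medians 227 and 234 UMIs) than in gated sham cells (282 and 308). The other stroke microglia, whose ratio uses the same sham sums, had medians of -0.78 and -0.90 for these genes, against -0.06 and -0.06 over all genes. With library totals, 2 homeostatic genes rose and 15 fell in the members (median -0.20). Gpr34, a lysophosphatidylserine receptor, was at 2324 and 2294 CPM in the members, 2336 and 2299 in sham and 1119 and 1093 in the other stroke cells. Slc2a5, a fructose transporter, was at 354.4 and 364.9 CPM in the members, 372.3 and 308.8 in sham and 113.7 and 117.2 in the other stroke cells.

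Some homeostatic genes did not keep the sham level. Upk1b, uroplakin 1B, fell to 56.79 and 50.4 CPM from 89.52 and 98.7 (log2 -0.81 ± 0.14, edgeR, adjusted p = 2.9e-07), and was at 11.72 and 12.77 in the other stroke cells. Entpd1, the ectonucleotidase CD39 that breaks down extracellular ATP, fell to 345.9 and 382.9 from 446.5 and 529.9 CPM (log2 -0.42 ± 0.15, adjusted p = 0.043, same edgeR test). Cx3cr1, the fractalkine receptor, was at 3349 and 3392 CPM against 5160 and 4228 in sham, below both sham values, but its log2 change of -0.47 ± 0.20 did not pass (edgeR, adjusted p = 0.086). Gpr84, a receptor for medium-chain fatty acids, rose to 211.7 and 206.1 from 122.1 and 128.9 CPM (log2 0.74 ± 0.14), and the other stroke cells had 297.6 and 272.1. Its order over the classes was the reverse of that of Upk1b, so these levels do not bear out a place among homeostatic genes.

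Among regulators, 2 of 32 transcription factors tested rose and 1 fell (median log2 0.03), no larger a share than the 8.7% and 6.11% of all genes. Bhlhe41 rose from 158.0 and 197.7 to 246.8 and 272.9 CPM, above the 203.5 and 222.5 of the other stroke cells (log2 against sham 0.55 ± 0.14, edgeR, adjusted p = 0.0012). Nr3c1, the glucocorticoid receptor, fell from 204.9 and 204.2 to 147.5 and 146.1 CPM (log2 -0.48). Maf, Mef2c and Mef2a, which act in the microglial program, did not pass the test, with log2 changes from -0.29 to -0.003. Of 19 genes of the TGF-beta pathway, which maintains microglial identity, edgeR called 0 in either direction (1 higher and 2 lower at an unadjusted p under 0.05, 0 by DESeq2, median log2 -0.03). With library totals 0 were higher and 3 lower. Its receptor gene Tgfbr1 was at 736.6 and 791.0 CPM against 1021 and 922.2 in sham and 371.5 and 380.0 in the other stroke cells.

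The families of P2ry12, Il7r and Plxna4 were read from lists of their relatives. For the counts that follow, 8.7% of all genes rose and 6.11% fell. Of 10 purinergic genes tested beside P2ry12, 1 rose and 2 fell, Entpd1 among the latter. P2ry13, the closest related ADP receptor, was at 544.4 and 550.7 CPM against 761.3 and 580.6 in sham and did not pass. Of 21 cytokine receptor and signalling genes of the Il7r list, 8 rose and 0 fell (median log2 0.13). Il2rg, the common gamma chain that pairs with Il7r, rose from 2.87 and 3.495 to 10.12 and 9.215 CPM (log2 1.60 ± 0.28, edgeR, adjusted p = 4.8e-07), and was at 22.74 and 22.3 in the other stroke microglia. The 2 chains of that receptor thus had different orders over the classes. Csf2ra, the alpha chain of the GM-CSF receptor, rose from 69.1 and 78.93 to 139.2 and 151.4 CPM (log2 0.97 ± 0.13).

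Of 17 plexin and semaphorin genes, 2 rose and 2 fell (8.7% and 6.11% over all genes). Plxnb2 rose from 192.9 and 154.7 to 268.9 and 261.4 CPM (log2 0.62 ± 0.14), and Sema4d, a ligand of B-type plexins, from 128.5 and 105.0 to 152.0 and 150.3 (log2 0.38 ± 0.13, edgeR, adjusted p = 0.035). In both, unlike Plxna4, the other stroke microglia were not far from the members (257.5 and 257.6 CPM for Plxnb2, 122.0 and 127.4 for Sema4d). Of 17 potassium and proton channel genes, 4 rose and 0 fell (8.7% and 6.11% over all genes). Kcnk13, the THIK-1 channel linked to microglial surveillance, was at 79.1 and 83.5 CPM against 72.95 and 74.39 and did not pass the test.

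The disease-associated genes, which microglia turn on around damage and plaques, rose: 28 of 31 tested, with 0 falls and a median log2 change of 1.42. By sex the members' median was 1.57 and 1.02, and that of the other stroke microglia, over the same sham sums, 2.73 and 2.57. DESeq2 called 21 higher and library totals 27, and the count was 21 and 23 without the female and male stroke library. Ctsd, a lysosomal protease, rose from 6052 and 7086 to 13640 and 13490 CPM (log2 1.05 ± 0.21), level with the 12730 and 14150 of the other stroke cells. Ctsl, another, rose from 1125 and 1297 to 3333 and 3265 CPM (log2 1.45 ± 0.19), with 3798 and 4078 in the other stroke cells. Itgax, the integrin CD11c, was at 10.74 and 11.85 CPM against 2.491 and 2.4 in sham and 13.58 and 11.84 in the other stroke cells. Tyrobp and Trem2, the signalling pair of the state, did not pass (log2 0.48 and 0.24).

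Monocyte markers rose with this list: 8 of 10 tested, median log2 2.43, with sums of 97.48 and 56.99 CPM over 15 genes in the members, 16.52 and 19.72 in sham and 780.9 and 668.5 in the other stroke microglia. In the members 1 and 2 of the 15 were at 0. A marker near 0 in sham could enter the test through the stroke libraries alone and had little room to fall, which partly fixes the median. Ccr2, the defining receptor of recruited monocytes, was at 14.66 and 3.197 CPM against 5.037 and 5.425 in sham and did not pass, while Fn1, fibronectin, was at 19.41 and 17.3 against 0.5957 and 0.8868 and rose (log2 4.61 ± 0.30). With monocyte-marker cells left out of all classes, 28 disease-associated genes rose, and 6 monocyte markers still did (median log2 2.22), so that setting did not remove these RNAs, and their part in the list was not tested.

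**Figure D4:**
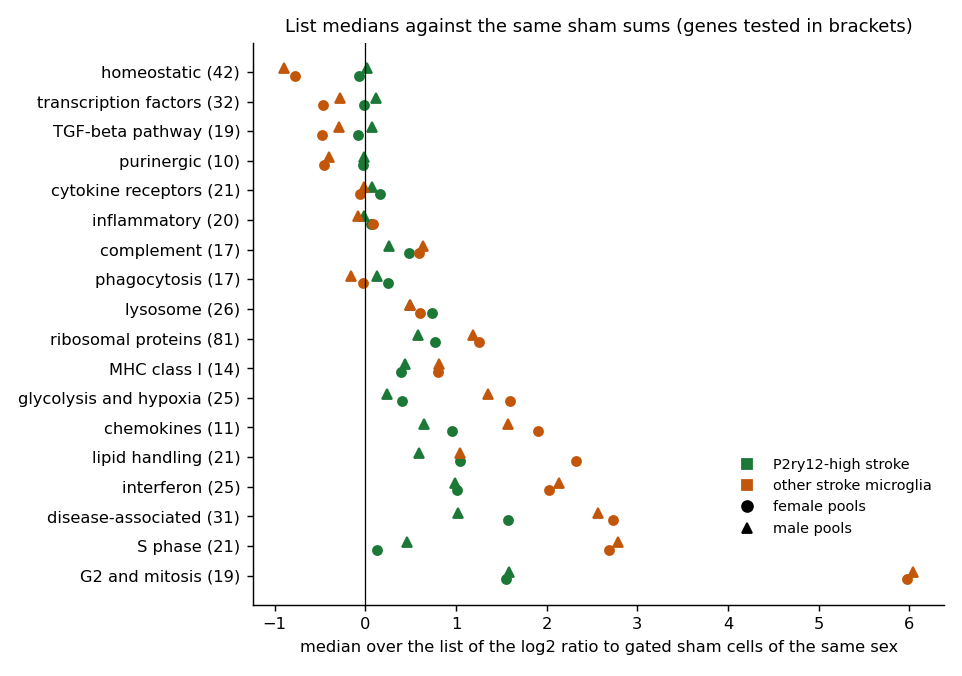
Median log2 ratio to gated sham cells over the genes of 18 lists (number of genes tested in brackets), for P2ry12-high stroke cells (green) and other stroke microglia (orange), circles female and triangles male; both classes are set against the same sham sums. For the homeostatic list green lies near 0 and orange below it, and for the disease-associated and interferon lists green lies above 0 and orange further above.

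Interferon-linked genes outside the rule rose in 21 of 25 tested and fell in 0 (median log2 1.12, DESeq2 14). Cells with the most Ifit, Rsad2 and Isg15 RNA had been left out by the rule. The list summed to 1695 and 1765 CPM in the members, 661.1 and 781.5 in sham and 3625 and 4502 in the other stroke microglia. Free RNA was not removed, and its part in these rises was not tested. Lgals3bp, a secreted glycoprotein, rose from 78.09 and 76.06 to 252.4 and 251.5 CPM (log2 1.71 ± 0.14). Bst2, tetherin, rose from 118.6 and 164.3 to 223.2 and 247.3 CPM (log2 0.75 ± 0.14). Zbp1, a sensor of nucleic acids, was at 7.228 and 10.16 CPM against 0.9207 and 1.513 in sham and 54.67 and 67.26 in the other stroke cells. Of 14 MHC class I genes 6 rose and 0 fell. B2m, their shared light chain, rose from 1508 and 1250 to 2383 and 2535 CPM (log2 0.84 ± 0.18), near the 2568 and 3020 of the other stroke cells.

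Of 26 lysosomal genes tested 17 rose and 0 fell (median log2 0.57), and of 21 lipid-handling genes 11 rose and 1 fell (median log2 0.90). Abca1 and Abcg1, the exporters of cholesterol, were at least as high in the members as in the other stroke cells: 385.4 and 372.9 CPM against 364.1 and 335.8 for Abca1, and 156.7 and 128.5 against 130.1 and 121.4 for Abcg1. Their sham levels were 235.0 and 206.6 CPM and 77.23 and 74.96 CPM, and both genes rose (log2 0.78 ± 0.15 and 0.90 ± 0.13). Apoe rose by log2 2.40 in the female and 0.67 in the male libraries (levels 1393 and 704.9 CPM, sham 264.6 and 444.5), and it was at 3575 and 2951 CPM in the other stroke cells. Of 17 complement genes 4 rose and 0 fell, with C4b at 12.39 and 12.41 CPM against 1.679 and 1.722 in sham (log2 2.86 ± 0.29).

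Of 11 chemokine genes tested, among 18 listed, 7 rose and 2 fell (median log2 0.92). A gene near 0 in sham could enter the test through the stroke libraries alone. Ccl9 rose from 121.7 and 71.73 to 215.8 and 216.1 CPM (log2 1.21 ± 0.14), above the 181.6 and 178.8 of the other stroke microglia. Ccl12, a monocyte attractant, rose to 216.6 and 223.8 from 84.54 and 142.8 CPM (log2 0.999 ± 0.136), with 1175 and 1187 in the other stroke cells. Ackr3, a scavenging receptor of Cxcl12, was higher in the members than in either other class: 8.674 and 5.266 CPM, against 0.8665 and 1.304 in sham and 2.937 and 1.912 in the other stroke cells (log2 against sham 2.65 ± 0.39). Il6, a proinflammatory cytokine, fell from 24.21 and 24.99 to 13.22 and 14.11 CPM (log2 -0.85 ± 0.18) and was at 4.39 and 3.645 in the other stroke cells. Of 20 inflammatory genes 2 rose and 1 fell (median log2 0.02), near the 8.7% and 6.11% of all genes.

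Ribosomal protein genes rose in 71 of 81 tested and fell in 0 (median log2 0.69). Their summed level was 116100 and 114200 CPM in the members, 67990 and 74500 in sham and 160600 and 165500 in the other stroke microglia. Glycolysis and hypoxia genes rose in 9 of 25 (median log2 0.31), and Gapdh, at 639.6 and 648.5 CPM against 416.5 and 610.2 in sham and 2005 and 2139 in the other stroke cells, did not pass. Slc2a6, a sugar transporter of lysosomes, rose from 1.029 and 2.191 to 17.55 and 15.8 CPM (log2 3.38 ± 0.28). Of 14 glucocorticoid-responsive genes 5 rose and 5 fell: Sgk1 rose by log2 0.56, and Txnip fell by 0.49 on the log2 scale. Immediate early genes, which dissociation of tissue can induce, rose in 4 of 25 tested (8.7% over all genes). Their summed level was 5366 and 6382 CPM in the members, 4388 and 6553 in sham and 3260 and 3321 in the other stroke microglia. Fosb was one of the 4, at 200.5 and 195.6 CPM against 86.54 and 92.96 in sham.

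For the lists counted in this paragraph, rises were no more numerous in fits that left out a stroke library. Monocyte markers and chemokine receptors differed, with more rises than in the full fit when the male stroke library was left out. Those fits also lacked the sex term, and the parts of the library and of the term cannot be told apart. Without the female and without the male stroke library, in that order, the rises numbered 16 and 14 among interferon genes, 8 and 9 among lysosomal, 9 and 11 among lipid, 4 and 5 among chemokine and 5 and 1 among MHC class I genes. They numbered 18 and 21 among ribosomal protein genes, 3 and 4 in the Il7r list, 1 and 0 among ion channels, 2 and 2 among glycolysis and hypoxia genes and 1 and 1 among immediate early genes. In these fits the lone stroke library is assumed to vary like the other libraries. For the lists with 0 falls in edgeR, DESeq2 also called 0, and at an unadjusted p under 0.05 1 gene each was lower in the Il7r, glycolysis and complement lists. With library totals, rises numbered 18 among interferon, 15 among lysosomal, 65 among ribosomal protein and 27 among disease-associated genes, and the sign of the median turned for the Il7r list (-0.07), transcription factors (-0.17), inflammatory genes (-0.17), purinergic genes (-0.16) and plexins and semaphorins (-0.03).

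Genes of division were low in the members, which the rule's limit on Mki67, Top2a and Birc5 partly fixes. Summed G2 and mitosis genes outside the rule reached 252 and 255 CPM in the members, 194 and 218 in sham and 2677 and 2551 in the other stroke microglia. Of the 24 listed genes 19 were tested, and 11 rose and 0 fell in edgeR (median log2 1.65, 3 rises by DESeq2). Ube2c went from 0.2166 and 0.3652 to 8.674 and 9.027 CPM. The filter on low counts let a gene near 0 in sham enter through the stroke libraries alone. Such a gene had little room to fall, so the 0 falls and the median are partly fixed by the filter. S phase genes, which no step of the rule used, rose in 6 of 21 and fell in 0 (median log2 0.30), with 4 and 2 rises without the female and the male stroke library. DESeq2 called 0 of the S phase genes. Free RNA was not removed, and its part in the rises of division and S phase genes was not tested. The measure in neutrophil-marker cells was not taken for them. Pcna, the DNA polymerase clamp, was at 48.33 and 47.58 CPM in the members, 45.76 and 37.66 in sham and 190.7 and 183.6 in the other stroke cells.

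Set against the other stroke microglia of the same libraries, the members had 127 of 6567 genes (1.93%) at least 2-fold higher and 446 (6.79%) at least 2-fold lower in both libraries, among genes at 20 CPM or more in the higher class. The 2 classes were split by RNA of the same cells, so these are descriptions without a test. With library totals, an alternative chosen after seeing the data, 219 genes were higher and 331 lower. Tmem204 had the largest lesser ratio (log2 2.49 in both libraries), followed by genes with log2 ratios of 1.48 or more in both libraries. Among them, Tnfrsf17, the B cell maturation antigen, was at 36.14 and 45.14 CPM in the members against 10.8 and 9.707, with 44.79 and 54.36 in sham. Csmd3, a large membrane protein with complement-control domains, was at 206.3 and 203.9 against 61.84 and 65.64 CPM, and Slc40a1, the iron exporter ferroportin, at 141.9 and 143.9 against 49.96 and 47.7. In sham these were at 212.1 and 175.2 and at 149.1 and 133.9 CPM, so both were near the sham level in the members. Sult1a1, a sulfotransferase, was at 35.31 and 35.55 against 12.22 and 10.54 CPM, and had fallen from the 62.28 and 65.89 of sham (edgeR, log2 -0.86, adjusted p = 2.4e-07).

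Of the 12 genes lowest relative to the other stroke cells, 10 were genes of dividing cells (among them Pbk, Nusap1, Hmmr, Bub1 and Plk1), which the rule's division step ties to the choice of members. Pbk was at 0.8261 and 0.5642 CPM in the members against 72.7 and 62.03. The remaining pair were Spp1 and Ch25h, cholesterol 25-hydroxylase. Ch25h was at 4.75 and 4.89 CPM against 214.1 and 246.0, and at 1 and 3 UMIs in sham. By list, 13 of 42 homeostatic genes were at least 2-fold higher and 0 lower in the members, and 15 of 29 disease-associated, 11 of 23 interferon-linked and 18 of 19 S phase genes were at least 2-fold lower and 0 higher.

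Most other stroke microglia failed on P2ry12 and on nothing else, and these 1610 and 1427 cells differed from the members without any step on division, interferon or Ccl3 and Ccl4. On plain totals, without TMM factors, Sox4 was at 78.3 and 60.5 CPM in them against 220 and 201 in the members, and Il7r at 28.9 and 24.9 against 72.4 and 72.6. ZsGreen was at 1755 and 1698 against 961 and 859 CPM, and Spp1 at 3069 and 3531 against 82.2 and 90.1. The order of these genes was therefore the same with the division, interferon and chemokine steps set aside.

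Members differed among themselves along P2ry12. In cells at 20 to 30, 30 to 40 and 40 or more P2ry12 UMIs per 10000 (424, 226 and 130 female and 467, 228 and 135 male cells), Cst7 stood at 123, 71.2 and 41.5 CPM of plain totals in the female and 104, 74.2 and 49.5 in the male library. Ifi27l2a ran from 392 through 280 to 153 CPM and from 428 through 223 to 91.5. ZsGreen ran from 1051 through 876 to 728 and from 903 through 818 to 733 CPM. Each of the 3 genes was lower in every higher band of both libraries, and above the gated sham cells of the same band. Gated sham cells had the same order for Cst7 (20.9, 12.88 and 8.224 CPM female, 19.23, 11.3 and 7.285 male) and Ifi27l2a (40.12, 19.94 and 8.708 female, 45.73, 21.75 and 13.16 male), so it is not particular to the members. ZsGreen in gated sham cells had the same order in the female library, at 638.1, 612.8 and 568.4 CPM. In the male sham library it did not, at 646.6, 630.5 and 639.9 CPM. Sox4 was highest in the top band, at 211, 203 and 302 CPM (female) and 169, 212 and 333 (male), and it was also highest there in gated sham cells (253.0, 303.7 and 324.3 female, 280.9, 314.5 and 342.4 male). Spp1 had no such order, at 86.2, 69.7 and 91.0 CPM and 94.1, 84.7 and 82.5. Median depth per cell fell over the bands from 5970.5 to 4489.5 UMIs and from 6230 to 4465, and P2ry12 per 10000 is a share of the same UMIs, and the part of depth and of this shared scale in these orders was not tested.

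**Figure D5:**
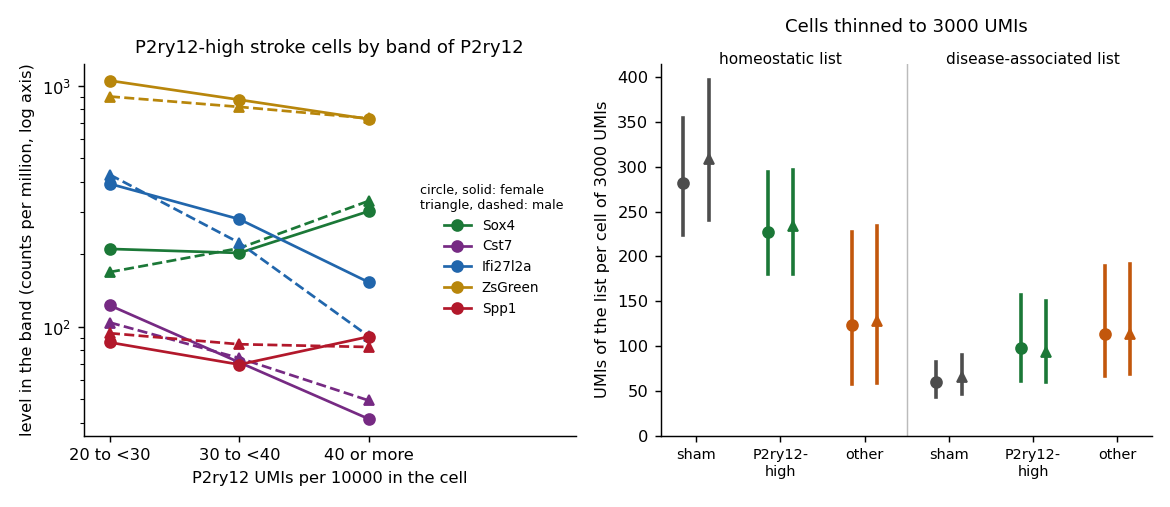
Left: levels in CPM of plain totals (log axis) of Sox4, Cst7, Ifi27l2a, ZsGreen and Spp1 in members of 3 P2ry12 bands, by library. Right: UMIs from the homeostatic and disease-associated lists per cell thinned to 3000 UMIs, as the median with a line from the 10th to the 90th percentile, where the members lie between gated sham cells and other stroke microglia.

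At equal depth, the per-cell medians placed the members between the other classes. Of 3000 UMIs per cell, 227 (female, 674 cells) and 234 (male, 724 cells) came from homeostatic genes in the members, 282 and 308 in gated sham cells and 123 and 128 in the other stroke microglia. Disease-associated genes gave 98 and 93 UMIs in the members, 59.5 and 65 in sham and 113 and 113 in the other stroke cells. Ribosomal protein genes gave 334 and 327, against 232 and 236 in sham and 416.5 and 419 in the other stroke cells. Cells under 3000 UMIs were left out, so 674 of 780 and 724 of 830 members entered.

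Some RNAs of other cell kinds went in opposite directions in the sexes. S100a8 and S100a9, abundant in neutrophils, were at 32.42 and 37.79 CPM in female members and 2.257 and 2.257 in male, against 1.354 and 1.841 in female and 6.677 and 8.19 in male sham cells. The neutrophil marker list summed to 285.0 and 216.7 CPM in the members and 185.3 and 175.1 in sham, with 3 and 4 of its 10 genes at 0 in the members. Cd74, the invariant chain of MHC class II, was at 70.22 and 29.53 CPM in the members against 41.38 and 114.6 in sham. With 1 library for each sex and treatment, sex and library cannot be told apart here, and the part of other cells in these values was not tested.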

How the data were processed

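Single-cell 3′ RNA was measured in 4 libraries: sham and stroke, female and male, each of 4 pooled mice. The deposited matrices hold raw UMI counts for 32286 features, which the authors made with Cell Ranger 7.1.0 and mm10 per the submitters' processing notes; the file headers name cellranger 6.1.2. Whether introns were counted is not stated in the labels or headers. Free RNA was not removed and doublets were not called.

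The members, gene lists and comparisons were chosen with earlier results of these data known. Counts were summed per library over gated sham cells, P2ry12-high stroke cells and other stroke microglia, with common TMM factors. Members and gated sham cells (2 sums a group) were tested with edgeR 4.0.16 (R 4.3.3; quasi-likelihood, sex and treatment terms, filterByExpr, Benjamini-Hochberg adjusted p under 0.05 over 12462 genes fitted). The replicate unit is the library; each standard error is the log2 change over the root of its F. Ratios with under 3 UMIs in a library use 3 UMIs as a floor. The edgeR fit was also run on simulated counts with no sex effect. The library scale was given to that fit, so the simulation did not test TMM scaling. Comparisons inside the stroke libraries have no test. Levels were tabulated with Python 3.11.15, and intervals are exact (Clopper-Pearson) at 95%.

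Named genes were the 12 largest rises and 12 largest falls against sham, with both sexes in 1 direction and at least 20 CPM in the higher group of each sex. They also included the 12 highest and 12 lowest genes against other stroke microglia, the rule's genes, the 3 further markers, ZsGreen, and from each list the 4 most abundant and the 2 most changed genes. Genes named Gm or Rik and mitochondrial genes stayed out of the ranks, and some named genes are not reported here.

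Alternatives were thinning to 3000 UMIs, the male sham UMI minimum in all libraries, P2ry12 minimums of 15 and 30, at most 5% mitochondrial UMIs, leaving out cells rich in monocyte, immediate early or S phase genes, library totals, no filter, no sex term, DESeq2 1.42.0 and each library left out. The fits with a library left out had no sex term. Library totals for the members against other stroke microglia were added after seeing the data.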

Additional observations from a re-analysis of the deposited data

Results flagged for a closer look

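Against gated sham cells, 4 of the named genes went in opposite directions in the sexes, and the difference between the sexes was not tested because each sex has 1 library per treatment. S100a8 and S100a9, calprotectin subunits abundant in neutrophils, had log2 changes of 4.58 and 4.36 in the female libraries and -1.565 and -1.86 in the male. Cd74 and H2-Aa, of antigen presentation by MHC class II, had log2 changes of 0.76 and 0.90 in the female libraries and -1.96 and -2.315 in the male.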

How the results depend on the processing

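Against sham, 1083 genes were higher and 761 lower. The numbers were 687 and 348 with cells thinned to 3000 UMIs, 489 and 249 at a P2ry12 minimum of 30, 646 and 2267 with library totals, and 410 and 59 with DESeq2. Genes lower numbered 446 without monocyte marker cells and 465 without the sex term. Leaving out 1 library gave 308 to 1501 higher and 203 to 1398 lower. Fewer cells, fewer libraries, no sex term or another scale are part of these settings, and other causes were not tested. Against other stroke microglia, 127 genes were 2-fold higher and 446 lower. The numbers were 26 and 268 after thinning, 31 and 206 without S phase cells, 61 and 224 with the mean over cells, and 219 higher with library totals. The share of stroke microglia that passed was 22.56% (female) and 25.97% (male). It was 19.01% and 22.05% with the male sham UMI minimum, 24.27% (female) after thinning, 10.29% and 11.36% at P2ry12 of 30, and 32.94% and 35.89% at 15. It was 30.03% and 34.8% at 5% mitochondrial UMIs, 24.64% and 27.69% without monocyte marker cells, 16.79% and 16.17% without immediate early cells, and 28.12% and 30.53% without S phase cells. The log2 change of Cd74 turned to 0.88 and that of H2-Aa to 1.32 without immediate early cells, and with 1 library left out they ranged from -1.40 to 0.25 and from -1.72 to 0.29. Those of S100a9, S100a8 and Aldoc then ranged from -1.15 to 3.41, -0.83 to 3.64 and -3.50 to 0.09. Of 106 named genes called, 66 kept the call with DESeq2 and 99 with library totals. Sex pairs the libraries, and the reported fit has it as a term. At the members' 4890616 and 5348017 UMIs, changes of genes with a few UMIs were not detectable.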
